A study of Mus musculus with 12 samples.

Results

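The abundant transcripts of RNA polymerase III were followed in total RNA from brain and liver: the 7SL RNAs Rn7s1, Rn7s2 and Rn7s6, the 7SK RNA Rn7sk, the RNase MRP RNA Rmrp, the RNase P RNA Rpph1 and the Y RNAs Rny1 and Rny3. They were chosen by symbol, and rows with the same symbol were summed, which gave 8 genes from 9 of the 55450 rows of the table. The table holds 12 libraries from male mice aged 7 to 9 weeks, with 3 from each tissue of each genotype (wild type or knockout). The knockout animals were Vaultrc5-/-, lacking a gene for a vault RNA that is itself a polymerase III transcript, and the wild-type animals were Vaultrc5+/+, with the word flx in their titles. How the knockout was made and which alleles flx stands for are not given in the sources used here. The RNA was isolated from whole tissue, ribosomal RNA was depleted, and stranded total RNA libraries were read from a single end.

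RNA polymerase III transcribes short untranslated RNAs, most of which work inside a protein complex. 7SL is the scaffold of the signal recognition particle, which brings ribosomes that make secreted proteins to the endoplasmic reticulum. 7SK holds the elongation kinase P-TEFb in an inactive particle with Hexim1, Larp7 and Mepce. Rpph1 and Rmrp are the RNA parts of RNase P, which trims the front of transfer RNA precursors, and RNase MRP, which cuts ribosomal RNA precursors, and both enzymes share most of their proteins. Y RNAs are bound by Ro60 and La and take part in RNA quality control.

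Likeness between the 7SL rows limits how far they can be told apart. All RNA sequences compared or shown are from the GENCODE M21 transcripts on the GRCm38 build, 5' to 3', with DNA letters. Rn7s1 (chr12:69159295-69159594, plus strand) and Rn7s2 (chr12:69361182-69361481, minus strand) were identical over all 300 bases. Rn7s6 (chr6:69516339-69516629, plus strand) shared its first 214 bases with them apart from 3 differences, with a longest identical run of 173 bases, and diverged from them after that. Over the whole length Rn7s1 and Rn7s6 were 85.0% identical in 306 alignment columns.

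The Y RNAs are shown because, with the uncertain Rn7s6 row set aside, their levels stood furthest apart between the tissues. Rny1 (chr6:47788069-47788180, minus strand) has 112 bases and Rny3 (chr6:47781624-47781725, plus strand) has 102, and they were 72.3% identical over 112 alignment columns. Capitals mark the 4 aligned runs of at least 6 identical bases, TGGTCCGA, GTAGTG, CAGTTACAGATT and CACTTGAC. The first and last of these lie near the ends of the RNAs, which pair with each other in the stem that Ro60 binds.
Rny1: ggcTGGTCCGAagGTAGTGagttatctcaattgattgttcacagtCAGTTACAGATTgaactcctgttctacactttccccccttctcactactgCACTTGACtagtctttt
Rny3: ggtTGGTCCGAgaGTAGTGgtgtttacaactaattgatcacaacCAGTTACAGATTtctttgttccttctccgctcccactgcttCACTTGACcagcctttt

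The other members are each a gene of its own. Rn7sk (chr9:78175303-78175633, minus strand) has 331 bases, and its first 110 bases hold all 3 of its GATC motifs, shown in capitals. The GATC motifs of its first hairpin are known as part of the Hexim1 binding site.
Rn7sk: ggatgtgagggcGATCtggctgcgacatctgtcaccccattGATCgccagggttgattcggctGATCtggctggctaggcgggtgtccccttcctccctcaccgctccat
Rpph1 (chr14:50807449-50807767, minus strand) lies head to head with Parp2 (chr14:50807841-50821301, plus strand), a gene for a DNA repair enzyme. The whole space between them on GRCm38.p6 (RefSeq) is chr14:50807768-50807840, 73 bases, written here on the plus strand with TATAA in capitals.
Rpph1 to Parp2: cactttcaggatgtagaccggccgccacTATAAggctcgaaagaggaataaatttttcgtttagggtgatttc
The nearest base of TATAA lies 29 bases before the Rpph1 start and 41 bases before the Parp2 start. TATAA or its reverse complement was in 24.9% of 32851 RefSeq promoter windows of 300 bases. The octamer ATGCAAAT, which polymerase III genes of this kind often carry, was on either strand in 1.74% of the windows, among them those of Parp2 and of Ccdc107, the neighbour of Rmrp. It was on neither strand of the 73 bases between Rpph1 and Parp2. RefSeq windows for the 8 members themselves were not used here, and a match is only a match of letters.

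The brain libraries held 14844971 to 18567381 counts each and the liver libraries 23247449 to 27155480. The knocked-out gene matched the labels in liver, where Vaultrc5 had 33, 39 and 48 counts in wild type and 0 in every knockout library. In brain it had 4, 1 and 4 counts in wild type and 0 in knockout. A count of 0 allows up to 3, so the brain counts do not clearly tell the genotypes apart. Tissue markers matched the labels too: counts of the neuronal gene Snap25 were 31003 to 40259 in brain against 0 to 3 in liver, and those of the hepatocyte gene Alb at most 5 in brain and at least 714287 in liver. The choroid plexus gene Ttr ranged from 5 to 8856 counts and the myelin gene Mbp from 17632 to 58735 among the brain libraries, so the brain libraries differed in these cell markers. Brain knockout 3 stood apart in its short RNAs, with 1122 CPM (counts scaled to library size) in small nuclear RNAs against 2044 to 3051 in the other brain libraries, and results that rest on it are given without it.

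The 8 genes together took 4.53% to 6.01% of all counts in brain and 5.37% to 7.34% in liver. They held at least 99.9% of the counts of all rows annotated as misc_RNA or ribozyme in every library, and none of the other 556 misc_RNA rows passed 223 counts anywhere. Levels of different genes were set side by side per kilobase of annotated length. This scales for length only, and not for how well each short RNA is recovered in a library. On that scale the order in wild-type brain was 7SL (the 3 rows summed, taken at 300 bases, 118252 ± 10156 CPM per kb, SD, n = 3), Rn7sk (37539 ± 6915), Rpph1 (8515 ± 1745), Rmrp (1601 ± 225), Rny1 (534 ± 179) and Rny3 (355 ± 90.5). Only Rny1 and Rny3 were within their spread of each other. In wild-type liver 7SL (196307 ± 6763 CPM per kb), Rn7sk (19316 ± 115), Rpph1 (7510 ± 1473) and Rmrp (996 ± 138) kept that order. The Y RNAs came last in liver and changed places, with Rny3 at 7.81 ± 4.54 and Rny1 at 2.24 ± 1.17 CPM per kb, again within their spread. The knockout groups showed the same order in both tissues.

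**Figure D1:**
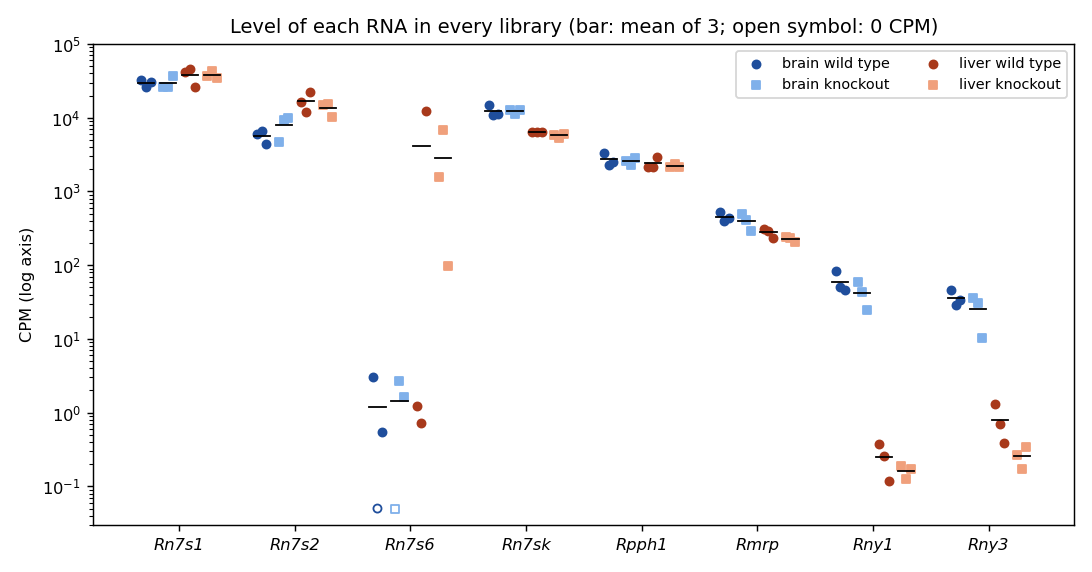
Level of each of the 8 RNAs in every library in CPM on a log axis, scaled within each tissue, with circles for wild type, squares for knockout, blue for brain, red for liver and a bar at the mean of 3 libraries. The Y RNAs sit between 10.1 and 82.8 CPM in brain and at or below 1.30 CPM in liver, and Rn7s6 spans 0.718 to 12249 CPM within wild-type liver.

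The 7SL RNAs were the largest group in both tissues. Their summed level was 38647, 32571 and 35208 CPM in wild-type brain and 31136, 35393 and 46173 CPM in knockout brain. It was 57322, 58172 and 61183 CPM in wild-type liver and 53040, 65024 and 44493 CPM in knockout liver. Every liver library except knockout 3 was above every brain library, and knockout overlapped wild type in both tissues. Leaving out brain knockout 3, the highest brain library was at 38647 CPM, below all 6 liver libraries. As a share of all counts the sum was 3.65% ± 0.496 (SD, n = 6) in brain and 5.65% ± 0.653 (n = 6) in liver, a difference of 2.00 percentage points whose groups did not overlap (two-sided exact permutation test, p = 0.00216). That test treats all libraries as independent and takes no account of the pairing of liver libraries by number. Within 1 genotype the design of 3 against 3 cannot go below 0.1, the value found in wild type (3.58% against 5.98%) and in knockout (3.72% against 5.32%). In whole tissue, more cells of a type and more RNA per cell cannot be told apart.

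The sum was divided unevenly among the 3 rows. Rn7s1 held 43.1% to 87.4% of it, Rn7s2 12.6% to 36.8% and Rn7s6 from 0% to 20.02%. Rn7s6 had 50.7, 0 and 9.55 expected counts in wild-type brain, 0, 45.5 and 26.0 in knockout brain, 29.4, 19.5 and 315042 in wild-type liver and 41025, 160220 and 2276 in knockout liver. It was thus high in 3 libraries, liver wild type 3 and liver knockout 1 and 2, while liver wild type 1 and 2 were as low as the brain. In liver wild type 3, where Rn7s6 took its largest share, the 7SL sum of 61183 CPM was close to the other wild-type values and Rn7s1 was lowest of the liver libraries at 26393 CPM against 34244 to 46272 CPM. None of the 3 rows held whole counts in any library, apart from Rn7s6 at 0 in 2 libraries, as is seen where reads are shared out between rows. Their sum was whole in 0 of 12 libraries as well (within 0.01), so summing the rows does not recover whole reads. Rn7sk was also whole in 0 of 12, Rpph1 in 8, and Rny1 and Rny3 in all 12. Values of single 7SL rows are therefore uncertain, so counts over the members are also given with the 3 rows summed into 1 RNA.

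**Figure D2:**
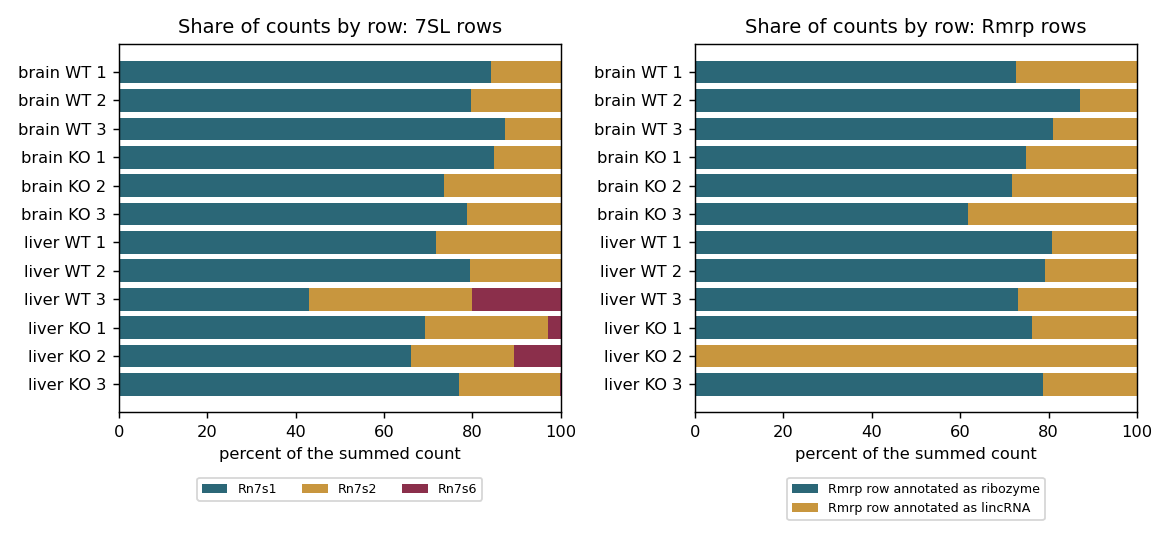
Share of the summed expected count, in percent, held by each row in each of the 12 libraries, for the 3 7SL rows (left) and the 2 Rmrp rows (right). Rn7s6 takes 20.02% in liver wild type 3 and 10.5% in liver knockout 2, and the longer Rmrp row takes 99.8% in liver knockout 2 against 12.8% to 38.3% elsewhere.

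Rmrp was split between nested rows. The table carries a ribozyme row of 271 bases (chr4:43492788-43493058, minus strand) inside a lincRNA row of 281 bases (chr4:43492783-43493063, minus strand) with 5 extra bases at each end. Neither row was whole in any library, but their sum was whole in 12 of 12 (within 0.01). The lincRNA row took 12.8% to 38.3% of the sum in 11 libraries and 99.8% in liver knockout 2, where the ribozyme row had 8.4 counts and the lincRNA row 5411. The sum in that library, 230 CPM, lay between the other knockout livers. Ccdc107 (chr4:43492900-43495921, plus strand) overlaps Rmrp on the opposite strand, and whether the counting used strand is not given in the sources used here.

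Knockout was compared with wild type within each tissue, the comparison the design names, by edgeR's quasi-likelihood test with Benjamini-Hochberg adjustment over all genes tested. In brain no member passed: 0 of 8 members had an adjusted p under 0.05, where 0% of 18074 genes did (percent called 0). At an unadjusted p under 0.05 there were 0 of 8 members against 0.658% of genes, and DESeq2 also called 0 members. No member's groups were apart in brain, against 4.27% of genes. In liver 0 of the 7 members tested passed, again with 0% of 15328 genes, and DESeq2 called 0 members and 10 genes. At an unadjusted p under 0.05 there were 2 of 7 members, Rny3 and Rmrp, against 3.51% of genes. Rny1 did not pass the filter on low counts in liver, and Rny3 passed it only through the wild-type libraries, so its unadjusted p is no support.

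In liver 6 of the 7 tested members had a negative log2 change, knockout minus wild type, with a median of -0.30 against 0.00 over all genes. With the 7SL rows summed, all 5 RNAs tested were negative, with a median of -0.15. In brain 6 of 8 members were negative, with a median of -0.05 against 0.00 over all genes, and with the 7SL rows summed 5 of 6, with a median of -0.12. Rny3 had 31, 19 and 10 counts in wild-type liver (1.30, 0.699 and 0.389 CPM) and 7, 4 and 8 in knockout liver (0.268, 0.170 and 0.340 CPM). All 3 knockout libraries were below all 3 wild-type libraries, at counts close to the floor of 3. The log2 change was -1.59 ± 0.54 (SE), with an unadjusted p of 0.0201 and an adjusted p of 0.992 (edgeR). Without wild type 1 it was -1.06, without wild type 3 it was -1.92, and without wild type 2 Rny3 did not pass the filter. Rn7sk, the RNA that restrains P-TEFb, was at 6396, 6355 and 6431 CPM in wild-type liver and 5809, 5327 and 6101 CPM in knockout liver, also without overlap. Its log2 change was small, -0.15 ± 0.14, with an adjusted p of 0.992 (edgeR). Of the 7 tested members, 2 had knockout entirely lower, against 5.12% of genes in that direction and 9.84% in either. Rny3 passed the filter on low counts only through its wild-type libraries, which fixed its lack of overlap in advance. Its part in this count is therefore no support.

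Rmrp, the RNA of the ribosomal RNA processing enzyme, was at 310, 293 and 236 CPM in wild-type liver and 242, 230 and 208 CPM in knockout liver. The groups overlapped, since wild type 3 lay below knockout 1. Its log2 change was -0.30 ± 0.13, with an unadjusted p of 0.0461 and an adjusted p of 0.992 (edgeR). Rpph1, its RNase P counterpart, was at 2124, 2125 and 2938 CPM in wild-type liver and 2161, 2358 and 2169 CPM in knockout liver. The groups overlapped, wild type 3 was highest, and the log2 change was -0.10 ± 0.17 (adjusted p = 0.992, edgeR). Without wild type 3 it turned to 0.07. The 7SL sum changed by -0.12 ± 0.19 on the log2 scale (adjusted p = 0.992, edgeR), by 0.00 without liver knockout 3 and by -0.27 without liver knockout 2.

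Sums of other short RNA classes are set beside these values, with no test. The sum of small Cajal body RNAs was 83.6 ± 1.41 CPM in wild-type livers against 67.0 ± 4.15 CPM in knockout livers (SD, n = 3), with every knockout library lower. Small nucleolar RNAs summed to 265 ± 11.8 and 222 ± 30.8 CPM and small nuclear RNAs to 891 ± 133 and 805 ± 46.1 CPM, and both overlapped. A knockout liver group entirely lower was found for 5.12% of genes, as above. Of 20 cell type markers, 3 were higher in every knockout liver than in every wild-type liver, where 4.72% of genes were, and 0 were lower. In brain 1 was higher, Pecam1, where 1.89% of genes were, and 0 were lower. The endothelial gene Pecam1 was at 14.6 to 18.1 CPM in wild-type and 20.9 to 22.7 CPM in knockout liver. The red cell gene Hbb-bs was at 12.2, 4.89 and 10.7 CPM in wild-type and 22.9, 16.7 and 14.7 CPM in knockout liver, and P2ry12 was the other marker. The partners of these markers in their pairs, Cdh5, Hba-a1 and Cx3cr1, overlapped in liver. Endothelial Cdh5 was at 32.8, 36.0 and 41.0 CPM in wild-type and 41.1, 49.4 and 38.7 CPM in knockout liver. It also overlapped in brain, at 15.4, 14.3 and 12.2 CPM in wild type and 13.1, 15.2 and 19.5 CPM in knockout. Summed per cell type, the ranges in wild-type and knockout liver were 47.4 to 59.1 and 59.6 to 70.7 CPM for endothelium, 9.35 to 21.7 and 23.3 to 33.9 CPM for red cells, and 1.05 to 1.59 and 1.82 to 4.59 CPM for the microglial pair, each without overlap. In brain the endothelial sum was 24.6 to 27.9 CPM in wild type and 29.8 to 39.3 CPM in knockout, without overlap, and the sums of the other cell types overlapped or, for Kupffer cells, were at 0. In liver those of Kupffer cells (50.9 to 68.4 and 61.2 to 131 CPM) and hepatocytes (47980 to 62661 and 37827 to 64164 CPM) overlapped. The part of these RNAs and cells in the values of the members was not tested. Libraries with the same number went together in liver, and with the replicate number as a block edgeR called 2 genes and still 0 members there. With the block the unadjusted p was 0.0152 for Rmrp and 0.0207 for Rny3 (adjusted p = 0.737 and 0.753), where 6.40% of genes had an unadjusted p under 0.05. As above, Rny3 entered this fit only through wild type.

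In brain the Y RNAs were the members with the largest differences besides single 7SL rows. Rny1 had 1392, 915 and 808 counts in wild type (82.8, 50.4 and 46.1 CPM) and 887, 743 and 405 in knockout (58.6, 43.7 and 25.02 CPM). Rny3 had 780, 516 and 590 counts in wild type (46.4, 28.4 and 33.7 CPM) and 539, 517 and 164 in knockout (35.6, 30.4 and 10.1 CPM). Both groups overlapped for both RNAs, with wild type 1 highest and knockout 3 lowest. The log2 changes were -0.49 ± 0.35 for Rny1 and -0.51 ± 0.44 for Rny3, each with an adjusted p of 1.00 (edgeR). Without brain knockout 3 they came to -0.23 and -0.14, and without wild type 1 to -0.20 and -0.31. With the replicate block Rny1 had an unadjusted p of 0.00733 (adjusted p = 0.999, log2 change -0.52 ± 0.13), where 2.20% of genes had an unadjusted p under 0.05. The replicate numbers did not pair the brain libraries (r = 0.70, 0.69 and -0.02), so nothing is drawn from this fit.

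The other members had changes nearer to 0 in brain. Rn7sk was at 15066, 11018 and 11191 CPM in wild type and 12871, 11231 and 12558 CPM in knockout, a log2 change of -0.02 ± 0.16. Rpph1 was at 3350, 2306 and 2492 CPM against 2549, 2317 and 2871 CPM, a change of -0.07 ± 0.17. Rmrp was at 521, 399 and 430 CPM against 501, 409 and 290 CPM, a change of -0.17 ± 0.21. The groups overlapped for each of these genes. Without wild type 1 the change turned to 0.12 for Rn7sk and 0.09 for Rpph1, and without knockout 2 it was 0.03 for Rn7sk. For Rmrp the lowest library was again knockout 3, and without it the change was 0.01. The 7SL sum changed by 0.08 ± 0.18, and without knockout 3 the direction turned, to -0.10 ± 0.16, with mean levels of 33265 CPM in knockout against 35476 CPM in wild type. The interaction test over all 12 libraries, which asks whether the knockout change differed between liver and brain, called 0 members and 0% of 20140 genes, with 0 members and 2.43% of genes at an unadjusted p under 0.05 (edgeR, and 0 members by DESeq2). The widest difference among members other than single 7SL rows was that of Rny3, -1.09 ± 0.81 on the log2 scale. With 1 library left out it ranged from -0.57 (without liver wild type 1) to -1.44 (without brain knockout 3).

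**Figure D3:**
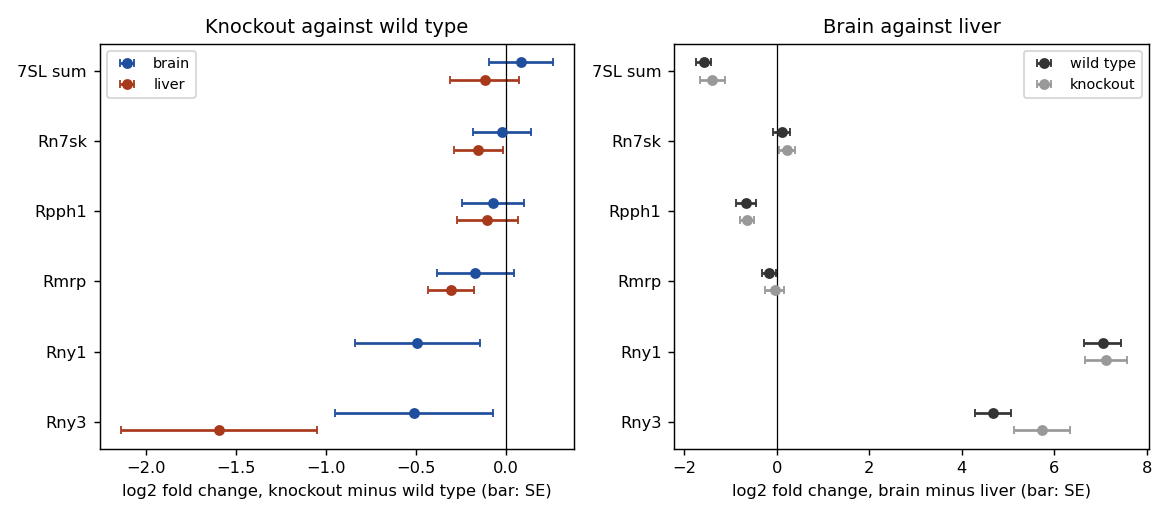
Log2 fold changes with their SE from edgeR for the 7SL sum and the 5 other members, knockout minus wild type in each tissue (left) and brain minus liver in each genotype (right, normalized across tissues). Knockout changes lie between -1.59 and 0.08, and Rny1 and Rny3 stand at 4.66 to 7.12 in the tissue comparison; Rmrp and Rpph1 turn to the other side on library totals, and Rny1 was not tested in liver.

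Among the members, brain and liver differed most in the Y RNAs, leaving aside the uncertain Rn7s6 row. Per library Rny1 had 405 to 1392 counts in brain but 9, 7 and 3 in wild-type liver and 5, 3 and 4 in knockout liver. For Rny3 the brain libraries had 164 to 780 counts and the liver libraries 4 to 31. No brain library came near a liver library for either RNA. As ratios of mean CPM, Rny1 was 239-fold higher in wild-type brain than liver and 261-fold higher in knockout, and Rny3 was 45.4-fold and 97.9-fold higher. The liver counts reach down to 3 for Rny1 and 4 for Rny3, near the floor of 3, so these folds are rough. In edgeR, which normalized both tissues together, the log2 difference was 7.04 ± 0.40 for Rny1 (adjusted p = 1.81e-06) and 4.66 ± 0.39 for Rny3 (adjusted p = 1.64e-05) in wild type. In knockout it was 7.12 ± 0.45 (adjusted p = 4.62e-06) and 5.73 ± 0.60 (adjusted p = 7.34e-05).

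The balance between the Y RNAs turned round as well. Rny1 counts were 1.78, 1.77 and 1.37 times those of Rny3 in wild-type brain and 1.65, 1.44 and 2.47 times in knockout brain. In liver the ratio was 0.290, 0.368 and 0.300 in wild type and 0.714, 0.75 and 0.5 in knockout. All 6 brain libraries were above 1 and all 6 liver libraries below it. The mean log2 ratio differed by 1.92 between the tissues (two-sided exact permutation test, 6 against 6, p = 0.00216). Here too the test takes no account of the pairing of liver libraries by number. Within each genotype the exact test gave 0.1, the smallest p it allows with 3 against 3. These ratios and the 7SL shares were chosen for testing after the values had been seen, and the liver ratios rest on 3 to 9 Rny1 counts.

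Among all members, 6 of 8 passed between brain and liver in each genotype, 2 higher in brain and 4 higher in liver. With the 7SL rows summed, 4 of 6 RNAs passed in each genotype, 2 in each direction. The share of members was close to that of all genes, of which 78.6% passed in wild type (43.9% higher in brain, 34.7% higher in liver) and 78.7% in knockout (43.5% and 35.2%). On library totals the balance among the members was the other way, with 4 higher in brain and 2 in liver in wild type and 4 and 1 in knockout, where 82.9% of genes passed in wild type (61.7% higher in brain, 21.2% higher in liver) and 82.5% in knockout (61.8% and 20.7%). By the main scaling Rny1 and Rny3 were those higher in brain, and Rpph1 (whose direction turned on library totals) and the 3 single 7SL rows those higher in liver. The 7SL sum differed by -1.58 ± 0.17 in wild type (brain minus liver, log2, adjusted p = 7.03e-05) and -1.39 ± 0.27 in knockout (adjusted p = 0.00192). By the ratio of mean CPM, scaled within tissues, the 7SL sum was only 1.66-fold higher in liver in wild type and 1.44-fold in knockout. Rpph1 differed by -0.67 ± 0.21 (adjusted p = 0.0207) and -0.65 ± 0.15 (adjusted p = 0.00581). The Rn7s6 call in wild type was lost without liver wild type 3 (adjusted p = 0.704, edgeR) and also without each brain wild-type library (adjusted p = 0.0732, 0.159 and 0.0914). It was lost too with no filter (adjusted p = 0.127) and with the replicate block (adjusted p = 0.380). Without liver wild type 3 the adjusted p of Rpph1 in wild type was 0.0681 (edgeR).

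Several of these directions depended on how the tissues were scaled. Scaling to library totals moved the median of all genes from 0.21 to 1.05 in wild type and from 0.21 to 1.07 in knockout, and the calls to 11624 genes higher in brain and 3999 in liver (wild type), and 11615 and 3887 (knockout). On library totals Rn7sk was higher in brain by 0.95 ± 0.19 (adjusted p = 0.00189) in wild type and 1.10 ± 0.18 (adjusted p = 0.00074) in knockout, against 0.11 ± 0.18 and 0.23 ± 0.17 by the main scaling, which passed in neither with edgeR and in knockout with DESeq2 (adjusted p = 0.0353). Rmrp turned from -0.16 ± 0.15 to 0.68 ± 0.16 in wild type (adjusted p = 0.00425) and from -0.04 ± 0.21 to 0.84 ± 0.22 in knockout (adjusted p = 0.00743). Rpph1 turned from -0.67 to 0.17 and from -0.65 to 0.22, neither passing on totals. Set against the median of all genes, Rn7sk lay close to it, Rmrp somewhat below and Rpph1 further below under either scaling. The Y RNAs stayed higher in brain, at 7.87 and 5.51 in wild type and 7.98 and 6.60 in knockout on library totals.

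The spread inside a group was also uneven. In brain Rmrp, Rny1 and Rny3 varied together from library to library, and with the small nuclear and small nucleolar RNAs. Brain wild type 1 and knockout 1 and 2 were at or above their group means for all of these, and knockout 3 was below them, by 0.43 (Rmrp), 0.67 (Rny1) and 1.10 (Rny3) on the log2 scale. In that same library the 7SL sum was highest of the brain libraries, 0.32 above its group mean. The level of Rmrp, log2(CPM + 0.5), correlated with that of the summed small nuclear RNAs over the 6 brain libraries (Pearson r = 0.991, exact permutation p = 0.00556, adjusted over 24 relations 0.0444, Spearman rho = 0.943, exact p = 0.0167, adjusted 0.1). For Rny3 r was 0.979 (exact permutation p = 0.00556, adjusted 0.0444, rho = 0.943, exact p = 0.0167, adjusted 0.1), and for Rny1 0.952 (exact permutation p = 0.0167, adjusted 0.0667, rho = 0.771, exact p = 0.103, adjusted 0.308). Without the 2 libraries farthest from the median, knockout 3 and wild type 1, r over the other 4 was 0.958 for Rmrp, 0.809 for Rny3 and 0.718 for Rny1. These relations were chosen after the deviations had been seen, and each genotype holds too few libraries for a value of its own.

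By Pearson's r Rmrp and Rny3 thus passed after adjustment and Rny1 did not, and by Spearman's rho none of the 3 passed. With the small nucleolar RNAs in brain, r was 0.989 for Rmrp (exact permutation p = 0.00833, adjusted 0.05, which is not under the threshold), 0.952 for Rny3 (exact permutation p = 0.00556, adjusted 0.0444) and 0.971 for Rny1 (exact permutation p = 0.0167, adjusted 0.0667). By Spearman's rho none of these passed (0.943, 0.943 and 0.771, exact permutation p = 0.0167, 0.0167 and 0.103, adjusted 0.1, 0.1 and 0.308). Without knockout 3 and wild type 1, r with the small nucleolar RNAs was 0.958 for Rmrp, 0.793 for Rny3 and 0.743 for Rny1. With the small nuclear RNAs in brain, r was -0.69 for the 7SL sum (exact permutation p = 0.233), 0.33 for Rn7sk (exact p = 0.489) and 0.08 for Rpph1 (exact p = 0.972), and none of these passed. These values depended on the same pair of libraries: without knockout 3 and wild type 1, r over the other 4 was -0.59 for the 7SL sum, 0.984 for Rn7sk and 0.741 for Rpph1. In liver none of the 12 relations passed, the smallest adjusted p being 0.248 by Pearson's r, for Rn7sk with the small nucleolar RNAs (r = 0.842, exact permutation p = 0.0722). By Spearman's rho it was 0.233, for Rn7sk with either class (rho = 0.829, exact permutation p = 0.0583). Cell markers varied among the same brain libraries: Ttr was at 217, 0.275 and 406 CPM in wild type and 585, 2.59 and 3.58 CPM in knockout, and Mbp at 1649, 986 and 3354 CPM and 1164, 1796 and 1130 CPM. Their part in the spread of the members was not tested.

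**Figure D4:**
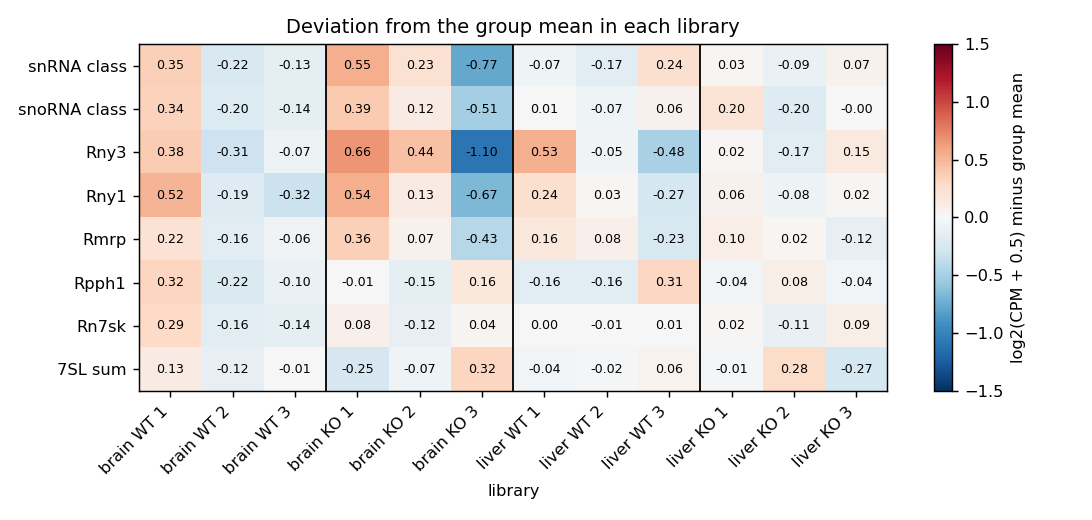
Deviation of each library from its group mean, in log2(CPM + 0.5), for 6 members or sums and the small nuclear (snRNA) and small nucleolar (snoRNA) classes, with red above and blue below the mean. Rny3, Rny1 and Rmrp are lowest in brain knockout 3, at -1.10, -0.67 and -0.43, where the 7SL sum is 0.32 above its mean.

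The genes whose within-group deviations were most like a member's over the 12 libraries were sought among 6209 genes with a mean of at least 10 CPM in both tissues. For Rn7sk they were Ppp6r3 (Pearson r = 0.97) and Mcc (0.97), for Rmrp Api5 (0.97) and Malt1 (0.93), and for Rpph1 Zscan21 (0.94) and Mrpl2 (0.94). For Rny3 they were Gm24950 and Gm23971, a pair annotated as small nuclear RNAs with equal values (both 0.96). For the uncertain single 7SL rows they were Nab2 (0.92) and Gm12918 (0.89) for Rn7s1, Ciz1 (0.91) and Fkbp2 (0.88) for Rn7s2 and Ccdc93 (0.91) and Taf2 (0.90) for Rn7s6. The best of 6209 is high by selection, and the libraries share depth and composition.

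The protein partners of these RNAs did not pass between knockout and wild type in either tissue. In brain 0 of 10 signal recognition particle genes, 0 of 7 genes of the 7SK particle and P-TEFb, 0 of 11 RNase P and MRP genes and 0 of 4 Y RNA binders passed by edgeR, and 0 had an unadjusted p under 0.05. In liver 0 of 10, 7, 10 and 4 tested passed, and those with an unadjusted p under 0.05 were Srp54c (0.41 ± 0.11, unadjusted 0.00704, adjusted p = 0.992), a form of the particle's GTPase, and Rpp25l (-0.39 ± 0.14, unadjusted 0.0270, adjusted p = 0.992), an RNase P and MRP subunit. In brain the smallest unadjusted p of each list was that of Srp9 (0.202), Hexim2 (0.173), Rpp38 (0.203) and Trove2 (0.568). The list medians ran from -0.06 to 0.01 in brain and -0.09 to 0.04 in liver, against 0.00 over all genes in each.

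Between tissues 78.6% of all genes passed in wild type and 78.7% in knockout (edgeR). In wild type 6 of 10 signal recognition particle genes, 5 of 7 genes of the 7SK particle and P-TEFb, 4 of 11 RNase P and MRP genes and 2 of 4 Y RNA binders passed, and in knockout 5, 5, 4 and 2. Of the 10 signal recognition particle genes 5 were higher in liver in each genotype by edgeR, and 1 was higher in brain in wild type and 0 in knockout (7SL itself was higher in liver). The list median was -0.29 in wild type and -0.33 in knockout, against 0.21 over all genes in each. The receptor subunit Srpr, which docks the particle at the endoplasmic reticulum, was at 48.1 ± 5.04 CPM in wild-type brain and 154 ± 4.81 CPM in wild-type liver (SD, n = 3), a log2 difference of -2.52 ± 0.12 (adjusted p = 6.49e-07). Srp72 (-1.23), Srp9 (-1.04) and Srp68 (-0.54), proteins bound to 7SL, were next, and Srp54c was higher in brain by 0.72. By the ratio of mean CPM, which is scaled within tissues, 2 of these genes, Srp68 (0.31) and the receptor subunit Srprb (0.38), were on the other side in wild type and again in knockout, while Srpr stayed lower in brain (-1.68). In knockout the fitted differences were -2.80 ± 0.12 for Srpr, -1.45 for Srp72, -1.12 for Srp9 and -0.55 for Srp68.

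Of the Y RNA binders 2 of 4 were higher in brain in each genotype and 0 in liver, with a list median of 0.80 in wild type and 0.85 in knockout. Trove2, the gene for Ro60, was at 98.1, 92.8 and 79.7 CPM in wild-type brain and 5.75, 7.25 and 4.70 CPM in wild-type liver. In knockout it was at 104, 83.7 and 97.1 CPM in brain and 6.39, 6.16 and 7.13 CPM in liver. Brain was above liver in every library, with log2 differences of 3.08 ± 0.18 (adjusted p = 2.26e-06) and 3.00 ± 0.13 (adjusted p = 5.89e-07). Matr3, a nuclear matrix protein, was higher in brain by 1.55 ± 0.10 and 1.59 ± 0.10, and both stayed higher by the ratio of mean CPM. Ssb, the gene for La, and Ncl did not pass.

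Of the 7 genes of the 7SK particle and P-TEFb, 2 were higher in brain and 3 in liver in each genotype. Hexim2, an inhibitor of P-TEFb, was higher in brain by 1.69 ± 0.26 in wild type and 1.53 ± 0.29 in knockout, while its relative Hexim1 was lower by 0.86 ± 0.12 and 0.64 ± 0.12 (log2). The 7SK capping enzyme gene Mepce was at -0.58 and -0.47, and the cyclins split, Ccnt2 at 0.38 and 0.30 and Ccnt1 at -0.28 and -0.36. The list medians were 0.11 and 0.01. Of 11 RNase P and MRP genes, 1 was higher in brain and 3 in liver in wild type, and 2 and 2 in knockout, with medians of 0.03 and 0.09. Rpp25 was higher in brain, at 4.07 ± 0.846 CPM in wild-type brain against 0.0262 ± 0.0229 CPM in wild-type liver, which is below the floor of 3 counts, so that its fitted differences of 6.22 and 4.71 are no bound. Its paralog Rpp25l was at -1.19 and -0.70. Rpp40 was at -1.15 and -1.28, Rpp21 at -0.70 in wild type, and Pop7 at 0.79 in knockout. By the ratio of mean CPM, Mepce (0.26), Ccnt1 (0.57) and Rpp21 (0.15) were on the other side in wild type, as were Mepce (0.39), Ccnt1 (0.49), Hexim1 (0.22) and Rpp25l (0.15) in knockout.

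**Figure D5:**
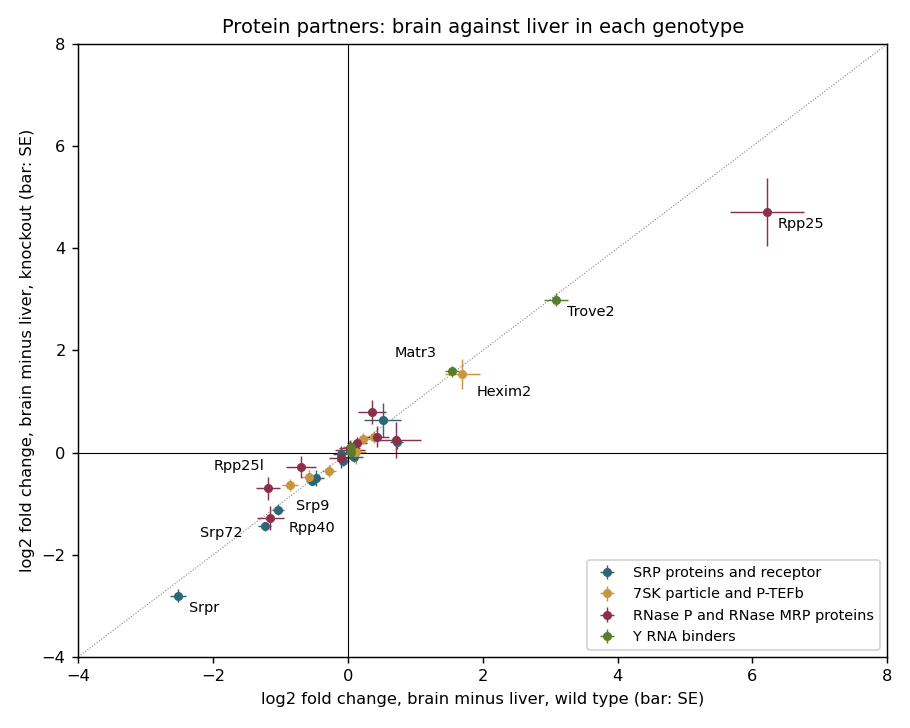
Log2 difference between brain and liver (positive is higher in brain) with its SE for the protein partners, wild type on the horizontal and knockout on the vertical axis, from separate edgeR fits that share no library; the dotted line marks equal values. Trove2 stands at 3.08 and 3.00, Srpr at -2.52 and -2.80, and Rpp25, whose wild-type liver level is below the floor, at 6.22 and 4.71.

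The other polymerase III RNAs listed by symbol had few counts. Polymerase III RNAs under symbols outside this list were not counted here. Of 184 such rows in the table, 180 were 5S ribosomal RNA genes, of which 19 had any count, summing to 8.25 to 15.99 counts per library. Ribosomal RNA had been depleted, so these counts are no measure of 5S levels. Bc1, a neuronal RNA that represses translation, had 4, 14 and 14 counts in wild-type brain, 11, 11 and 13 in knockout brain and 0 in all liver libraries. Its brain groups overlapped, and its log2 change was 0.26 ± 0.49 (adjusted p = 1.00, edgeR). Vaultrc5, the deleted gene itself, was the only RNA of this list tested in liver between the genotypes, with an unadjusted p of 3.12e-05 and an adjusted p of 0.332 (edgeR). In wild type it was higher in liver (adjusted p = 0.000116, edgeR), but it passed the filter only through liver, which fixed that direction in advance. Its 4, 1 and 4 brain counts lie around the floor of 3, so that the fitted log2 difference of -3.97 is no bound, and the ratio of mean CPM gave -3.17. In knockout Bc1 was the list's only tested gene and came out higher in brain (adjusted p = 0.000821, edgeR). It passed the filter only through the brain libraries, so that direction was fixed in advance.

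The genes next to Rpph1 and Rmrp were measured as well, and their difference from the members was not tested. Parp2, divergent from Rpph1, was at 14.2, 12.9 and 10.2 CPM in wild-type brain and 7.55, 5.96 and 7.31 CPM in wild-type liver, and its log2 difference by the main scaling was -0.01, against 0.84 by the ratio of mean CPM. Ccdc107, which overlaps Rmrp on the other strand, was at 10.5, 8.43 and 6.28 CPM in wild-type brain and 20.2, 15.7 and 18.5 CPM in wild-type liver. All its brain libraries were below all its liver libraries, with a log2 difference of -1.96 ± 0.20 in wild type and -1.76 ± 0.20 in knockout (edgeR). Neither passed between knockout and wild type, the smaller unadjusted p being 0.377 in brain (Parp2) and 0.0986 in liver (Ccdc107).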

How the data were processed

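Total RNA of brain and liver from wild-type and Vaultrc5-/- mice was read in 12 libraries, 3 per group, and the labels gave each library its group and number. The authors deposited 1 table of expected counts with no normalization, and the values were rounded to whole numbers for the tests. Adapter trimming or alignment parameters and the counting tool are not given in the sources used here; the submitters' processing notes name cutadapt, STAR and mm10. All 55450 identifiers matched GENCODE M21. The 7SL sequences are not reported here. The 8 members and the partner lists were chosen with earlier results of these data known.

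Counts were tested with edgeR 4.0.16 in R 4.3.3 (quasi-likelihood F-test, robust, TMM, filterByExpr with a minimum count of 10 and a minimum total of 15), with Benjamini-Hochberg adjustment over all genes tested and a threshold of 0.05. Rows of 1 member symbol were summed first. DESeq2 1.42.0, other scalings and filters, a fit of all 12 libraries, the replicate number as a block, summed 7SL rows and leaving out each library were the alternatives. CPM used TMM sizes within each tissue, which stay near library totals, whereas the brain against liver tests normalized both tissues together. Fold changes of edgeR and ratios of CPM between tissues therefore differ. A count of 3, the floor, equals 0.162 to 0.202 CPM in brain and 0.110 to 0.129 CPM in liver, and covers counting error only, since reads that carry no molecular identifier may be copies of 1 molecule. The labels do not say that libraries of a group came from separate animals, so p-values measure the spread between these libraries.

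Same-numbered wild-type and knockout liver libraries deviated together over 13076 genes (r = 0.32, 0.36 and 0.40), so the numbers were taken to pair them. The named genes were all members, up to 4 called genes per direction of each partner list, or the smallest unadjusted p where none was called, and the 2 genes most like each member tested in both tissues. The scripts were tested on simulated data.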

Additional observations from a re-analysis of the deposited data

How the results depend on the processing

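No member passed between knockout and wild type under any alternative run, in either tissue or in the interaction. Over all genes the count called in liver, 0, became 10 with DESeq2, 4 with no filter beyond 1 count, 2 with the replicate block and 0 to 1 with a library left out (1 without liver wild type 2). The interaction count, 0, became 1 with DESeq2 and 2 with the replicate block, and the brain count was 0 throughout.

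Some changes turned in sign. In liver Rn7s1 (0.00) was -0.041 on library totals, -0.0079 with no filter and -0.0074 with all 12 libraries in 1 fit, and Rn7s6 (-0.53) was 9.33 with the replicate block. In the interaction Rn7s1 (0.00) was 0.018 with DESeq2 size factors, 0.018 with the DESeq2 test, 0.0042 with a mean of at least 1 CPM and 0.043 with the replicate block, and Rn7s6 (-0.85) was 8.66 with the block. The cause was not tested. On library totals, brain against liver was 0.68 for Rmrp and 0.17 for Rpph1 in wild type and 0.84 and 0.22 in knockout, as that scaling moves the median of all genes. On totals Rn7s1 no longer passed in either genotype (adjusted p = 0.219 and 0.171), nor did Rn7s2 in knockout (0.0525).

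With each library left out in turn, log2 changes in brain ranged from -0.19 to 0.075 for Rn7s1, -0.55 to 2.31 for Rn7s6, -0.11 to 0.12 for Rn7sk, -0.37 to 0.010 for Rmrp and -0.19 to 0.089 for Rpph1. In liver they ranged from -0.20 to 0.17 for Rn7s1, -2.30 to 11.50 for Rn7s6 and -0.19 to 0.069 for Rpph1. In the interaction they ranged from -0.21 to 0.20 for Rn7s1, -2.85 to 11.18 for Rn7s6, -0.30 to 0.049 for Rmrp, -0.17 to 0.13 for Rpph1, -0.44 to 0.28 for Rny1 and -1.44 to -0.57 for Rny3. For Rny3 in liver they ranged from -1.92 to -1.06. For the 7SL sum, an alternative chosen after seeing the data, they ranged from -0.098 to 0.193 in brain and -0.273 to 0.0020 in liver. Between tissues they ranged from -0.066 to 0.13 for Rn7sk in wild type and -0.22 to 0.13 for Rmrp in knockout, and 4 to 6 members passed in wild type.

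In brain the replicate numbers did not pair the libraries (r = 0.70, 0.69 and -0.02 over 16351 genes), and across tissues same-numbered libraries averaged r = 0.05 in wild type and 0.03 in knockout. The replicate block called 0 genes in brain. Depth limits the Y RNAs in liver, where 3 to 31 counts per library leave wide counting error, and the split of reads between the 7SL rows limits any statement on Rn7s1, Rn7s2 or Rn7s6 alone.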

Other observations

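In brain knockout 3 the 7SL sum of 46173 CPM was highest of the 6 brain libraries, while Rny1 (25.02 CPM), Rny3 (10.1 CPM), Rmrp (290 CPM), the small nuclear RNAs (1122 CPM) and the small nucleolar RNAs (205 CPM against 297 to 433 CPM) were lowest. The Rny1 to Rny3 ratio of 2.47 in that library was also highest of the brain libraries. Small Cajal body RNAs were at 107 CPM there against 119 to 142 CPM in the other brain libraries.

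In brain the other misc_RNA rows summed to 35.9 ± 2.69 CPM (wild type) and 41.1 ± 3.97 CPM (knockout, SD, n = 3). In liver the sums were 16.4 ± 0.404 and 13.5 ± 1.10 CPM, with every knockout library below every wild-type library. The nearest were wild type 1 at 16.1 CPM and knockout 3 at 14.7 CPM. Only the 8 members were left out of these sums, so the deleted gene Vaultrc5 adds to them if annotated as misc_RNA. Its liver levels were 1.38, 1.44 and 1.87 CPM with the gene intact and 0 in every knockout library. Whether the groups stay apart without Vaultrc5 was not tested, and neither was any class.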
